A study of Mus musculus with 8 samples.

Results

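The 25 genes described here encode kinesin motors and light chains found in nuclear RNA of mouse hippocampal place cells, 25 of the 15519 genes in the deposited table. They were taken by symbol: 22 motor genes named Kif with a number and 3 light chain genes named Klc with a number. Kinesin genes with other symbols, such as Kifc2, are not among them and are described with the related lists. Klc3 and a number of motor genes matched no column and were not analysed here, among them Kif4, Kif11, Kif14, Kif18a, Kif20b, Kif23 and Kif2c. The libraries came from wild-type mice, with no transgene, treatment, age or time named in the labels, and the labelled cell type was the hippocampal pyramidal cell. Place cells are neurons whose firing marks where the animal is. They were recognised by imaging in the living animal during navigation, tagged with light, and their nuclei collected. There were 4 libraries of cells labelled Day 0 place cells and 4 of cells labelled Recurring place cells, each titled with its own mouse number. All Day 0 mouse numbers are lower than all Recurring ones, and the labels do not say what this order reflects. The labels do not define the 2 classes further, and the number of nuclei behind a library is not given in the sources used here. The comparison asks how place cells of the Recurring class differ in expression from those of the Day 0 class.

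Kinesins are motor proteins that use ATP to move along microtubules, most of them toward the plus end, which in an axon points away from the cell body. In neurons they carry synaptic vesicle precursors, mitochondria, receptors and RNA granules into axons and dendrites. Other members shape microtubules, build the mitotic spindle of dividing cells, or work in cilia. The nuclear RNA measured here lies upstream of the motor proteins themselves, which were not measured. In bulk libraries such as these, fewer cells of a type and less RNA per cell cannot be told apart.

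Depth lay between 8374986 and 14887866 reads per library, and 10718 to 13807 genes had at least 1 read. All values below are normalized counts, which are reads divided by a size factor for the library, unless another scale is named. The 8 CA1 pyramidal markers used for the check were all in the table, and their summed level was 13656 to 19328 in Day 0 and 12446 to 15215 in Recurring libraries. Markers of interneurons, astrocytes and oligodendrocytes were present in all 8 libraries, and those of microglia in all but Day 0 replicate 3. Interneuron markers (8 of 9 in the table) summed to 120 to 2282 in Day 0 and 1216 to 11250.5 in Recurring libraries, highest in Recurring replicate 2. Astrocyte markers (6 of 7) summed to 1413 to 2585 and 2282 to 11561, highest in Recurring replicate 1, and microglia markers (4 of 7) to 0 to 310.2 and 507 to 4331, highest in Recurring replicate 4. Oligodendrocyte markers (7 of 7) summed to 1354 to 10106 and 1437 to 6890, highest in Day 0 replicate 4. The part of these cells in the values below was not tested.

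No kinesin gene separated the groups. Of the 25 genes, 23 passed the filter (4 or more libraries with a normalized count no lower than 10), and limma with Benjamini-Hochberg adjustment called 0 of them, beside 0% of all 11078 tested genes. The lowest adjusted p among them was 0.981, with limma. At an unadjusted p under 0.05 there were also 0 of 23, where 401 of 11078 genes, 3.62%, passed, and limma voom on the recovered reads gave 0 of 23 as well. In no tested kinesin gene did the 4 Recurring libraries lie apart from the 4 Day 0 libraries, against 2.41% of all tested genes (1.24% higher and 1.17% lower). Mean log2 levels were higher in Recurring cells for 13 and lower for 10, with a median difference of 0.08, beside 50.1% higher and a median of 0.005 over all tested genes. The median changed sign with the libraries used, from -0.17 without Recurring replicate 1 to 0.36 without Recurring replicate 3. The filter left out Kif15 and Kif24, which are described with the mitotic kinesins.

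**Figure D1:**
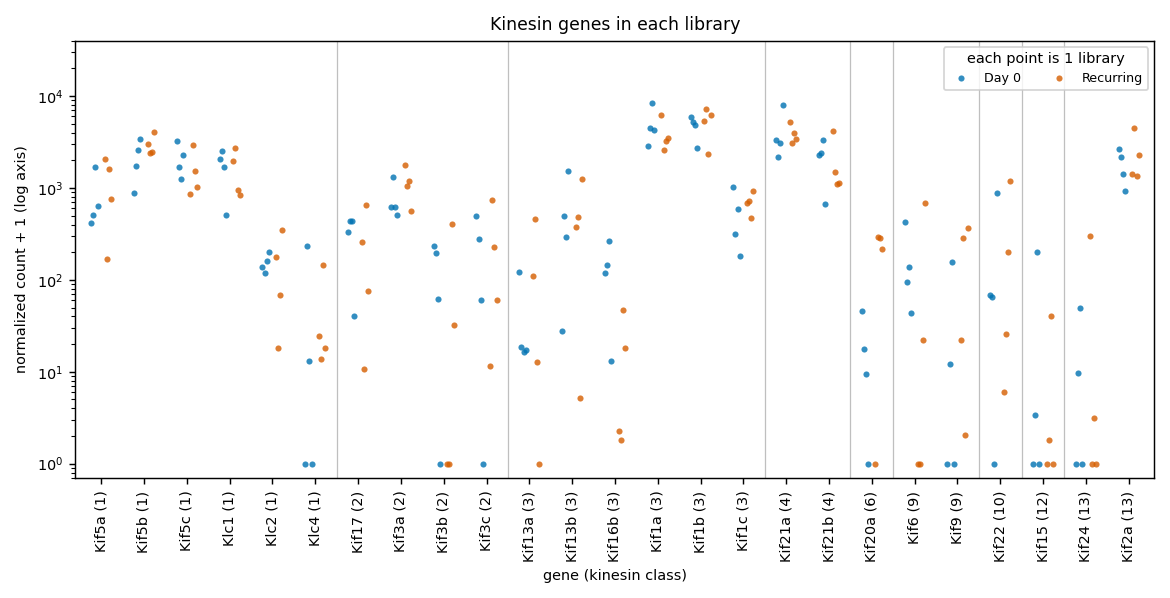
Normalized count plus 1 (log axis) of the 25 kinesin genes, in order of kinesin class (in brackets), with 1 point per library, 4 Day 0 in blue and 4 Recurring in orange. The colours overlap in every gene; Kif1a spans 3.26-fold and Kif1b 3.09-fold, while points at the bottom of the plot are libraries with 0 reads.

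The share of all reads that fell on these 25 genes was similar in size in both groups. It was 0.312%, 0.329%, 0.314% and 0.274% in Day 0 replicates 1 to 4 and 0.368%, 0.316%, 0.245% and 0.306% in Recurring replicates 1 to 4. The Day 0 range lay inside the Recurring range. Each library held reads of 18 to 25 of the genes.

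The genes fell into a set read in every library and a set missing from some. All 8 libraries had reads for 15 of the 25 genes, and 10 genes were at 0 in 1 to 4 libraries. Among tested members 8 of 23 were at 0 in at least 1 library, 34.8%, where the share was 45.6% of all tested genes. Levels could be compared between genes only per length of exon, for which the exon lengths of the GENCODE vM21 gene models were used, models of an earlier build than the authors' GRCm39. All 25 symbols matched a model. On that scale Kif21a had the highest mean over the 8 libraries, 622 ± 278 normalized counts per kb (SD, n = 8), and Kif1a the next, 479 ± 213. Klc1 followed with 406 ± 200.3, Kif2a with 327 ± 179, Kif5b with 321 ± 122, Kif1b with 283 ± 95.2, Kif3a with 266 ± 126 and Kif5c with 258 ± 123. The least abundant were Kif16b with 8.34 ± 10.4, Kif24 with 5.55 ± 12.9 and Kif15 with 2.74 ± 6.33.

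Neighbours in this order did not separate: no gene exceeded the next in all 8 libraries, and Kif21a exceeded Kif1a in 6 of 8. Relatives within a class did so in several cases. Kif21a exceeded Kif21b per kb in 8 of 8 libraries, with a ratio of means of 3.66. Kif3a exceeded both Kif3b and Kif3c in 8 of 8, Klc1 exceeded both Klc2 and Klc4 in 8 of 8, and Kif1a and Kif1b each exceeded Kif1c in 8 of 8. Kif1a exceeded Kif1b in 6 of 8. These orders are a description of the 8 libraries and depend on the gene models used.

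**Figure D2:**
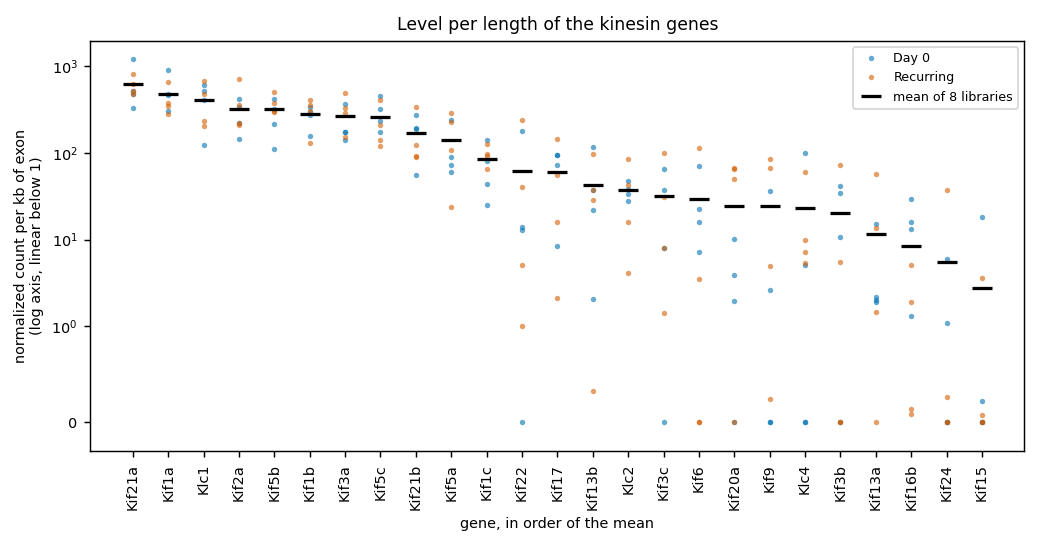
Normalized count per kb of exon (log axis, linear below 1) for the 25 kinesin genes in order of their mean over 8 libraries (black bars), with 1 point per library, blue for Day 0 and orange for Recurring. From Kif21a at 622 to Kif1c at 84.3 per kb no library is at 0; 10 of the genes further right have libraries at 0.

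Kinesin-1, the conventional kinesin, pairs heavy chains that carry the motor with light chains that bind cargo, and it moves mitochondria and vesicles in axons and dendrites. Its 6 genes here split 3 and 3 in the direction of their means. Kif5b, the heavy chain made in most tissues, was at 883, 1734, 2587 and 3384 in Day 0 replicates 1 to 4 and at 3014, 2397, 2456 and 4068 in Recurring replicates 1 to 4. All Recurring libraries lay above Day 0 replicates 1 and 2, and the upper Day 0 libraries lay among them. On the log2 scale its means were 10.90 ± 0.84 and 11.51 ± 0.35 (SD, n = 4), a difference of 0.61 (SE 0.47, 95% interval -0.39 to 1.60) with an adjusted p of 0.981 by limma. Without Day 0 replicate 1, its lowest library, the difference was 0.24.

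Kif5c, a heavy chain enriched in neurons, stood the other way. Day 0 replicates 1 to 4 held 3219, 1677, 1239 and 2284, and Recurring replicates 1 to 4 held 866, 2915, 1523 and 1022. The range of each group ran through the other. The log2 means were 10.95 ± 0.59 and 10.46 ± 0.78 (SD, n = 4), a difference of -0.49 (SE 0.53, 95% interval -1.60 to 0.62), which limma put at an adjusted p of 0.984. It was -0.84 without Recurring replicate 2 and -0.26 without Day 0 replicate 1. Kif5a, the third heavy chain and also neuronal, ranged from 417 to 1671 in Day 0 and from 168 to 2047 in Recurring libraries, so that both its lowest and its highest library were Recurring.

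The make-up of the heavy chains varied more between libraries than between groups. Of the 3 heavy chains' normalized counts per kb, Kif5b made up 17.8%, 41.4%, 44.0% and 50.8% in Day 0 replicates 1 to 4 and 47.7%, 41.0%, 40.9% and 67.0% in Recurring replicates 1 to 4. Kif5c made up 72.6%, 44.7%, 23.6% and 38.4% in Day 0 libraries and 15.3%, 55.7%, 28.4% and 18.8% in Recurring libraries. The 2 libraries richest in Kif5c, Day 0 replicate 1 and Recurring replicate 2, stood in different groups. They had the highest summed interneuron markers of their groups, 2282 and 11250.5. Recurring replicate 3 had a sum of 3503, above that of Day 0 replicate 1, with a Kif5c share of 28.4%. Day 0 replicate 4 had the lowest sum of all libraries, 120, with a Kif5c share of 38.4%. The part of interneurons was not tested. Kif5a had its lowest share, 3.28%, in Recurring replicate 2. The summed level of the 3 heavy chains was 679 ± 135 per kb in Day 0 and 759 ± 24.7 per kb in Recurring cells (SD, n = 4), and the Recurring range of 733 to 792 lay inside the Day 0 range of 525 to 834.

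**Figure D3:**
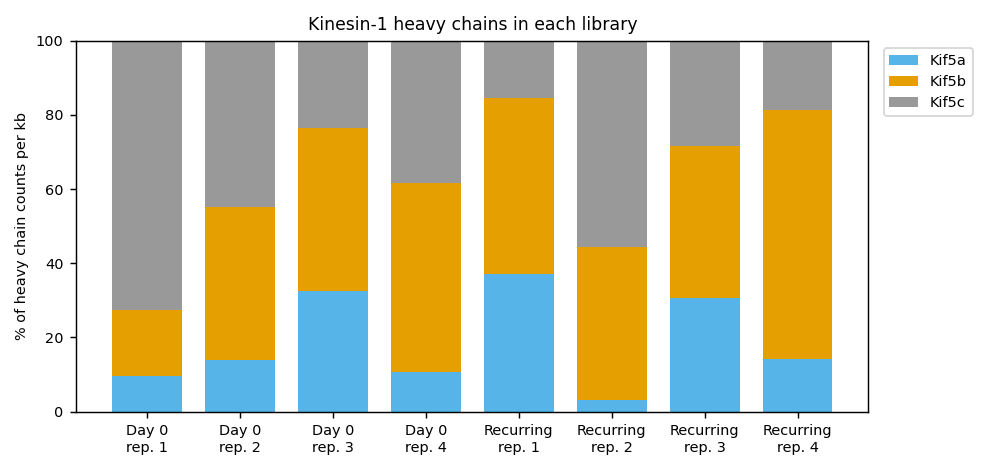
Share (%) of Kif5a, Kif5b and Kif5c in the normalized counts per kb of the 3 kinesin-1 heavy chains, 1 bar per library. Kif5c (grey) runs from 15.3% to 72.6%, with its largest bars in Day 0 replicate 1 and Recurring replicate 2.

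The light chains link the heavy chains to vesicles and adaptors. Klc1, the main neuronal light chain, was at 2090.0, 2509, 1679 and 504 in Day 0 replicates 1 to 4 and at 1942, 2726, 941 and 838 in Recurring replicates 1 to 4. The groups covered nearly the same range, and the log2 difference was -0.02 (SE 0.61, 95% interval -1.31 to 1.27). Klc2 was even in Day 0 cells, at 116 to 197, and spread in Recurring cells, at 17.0 to 348. Klc4 was at 0 in Day 0 replicates 1 and 4 and reached 235 in Day 0 replicate 2, while Recurring libraries held 12.9 to 145.

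Kinesin-2 motors work as a heterotrimer of Kif3a, Kif3b or Kif3c and an adaptor in vesicle transport and in building cilia, and Kif17 carries NMDA receptor vesicles in dendrites. Means were higher in Recurring cells for 2 of the 4 and lower for 2, and none was called. Kif3a was at 627, 1326, 620.2 and 512 in Day 0 replicates 1 to 4 and at 1763, 1038, 1189 and 555 in Recurring replicates 1 to 4, with overlap in both directions. Its partners were read unevenly. Kif3b was at 0 in Day 0 replicate 4 and in Recurring replicates 1 and 2 and reached 232 and 407 elsewhere in the 2 groups. Kif3c ranged from 0 to 489 in Day 0 and from 10.5 to 743 in Recurring libraries. In the gene models 35.3% of the exon length of Kif3c is shared with 1110002L01Rik on the opposite strand, and whether counting used strand is not given in the sources used here, so its values are uncertain. Kif17 was at 331, 432, 436 and 39.1 in Day 0 replicates 1 to 4, with 1 low library, and at 258, 9.69, 657 and 74.1 in Recurring replicates 1 to 4.

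Kinesin-3 motors carry synaptic vesicle precursors and dense core vesicles, with Kif1a as the main fast axonal motor of neurons. Kif1a was at 2871, 4522, 8488 and 4319 in Day 0 replicates 1 to 4 and at 6194, 2604, 3244 and 3491 in Recurring replicates 1 to 4. Its highest library, Day 0 replicate 3, was 3.26-fold above its lowest, Recurring replicate 2. The log2 means were 12.19 ± 0.65 and 11.84 ± 0.53 (SD, n = 4), a difference of -0.35 (SE 0.40, 95% interval -1.19 to 0.50) with an adjusted p of 0.995 by limma. Without Day 0 replicate 3 the difference was -0.06.

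Kif1b, which moves mitochondria and synaptic vesicle precursors, had the smallest standard error of the 23 by limma. It was at 5938, 5209, 4856 and 2751 in Day 0 replicates 1 to 4 and at 5373, 7186, 2323 and 6266 in Recurring replicates 1 to 4. One low library stood in each group. The log2 difference was 0.11 (SE 0.40, 95% interval -0.73 to 0.95). Kif1c, a more widely made relative, ranged from 180 to 1021 in Day 0 and from 470 to 927 in Recurring libraries.

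The remaining kinesin-3 genes were low and uneven. Kif16b, which moves early endosomes, had the largest difference of all 23 in size and their smallest unadjusted p. It was at 119, 144, 265 and 12.03 in Day 0 replicates 1 to 4 and at 1.24, 0.807, 45.6 and 17.2 in Recurring replicates 1 to 4. Both upper Recurring libraries lay above Day 0 replicate 4, so the groups overlapped. Log2 means were 6.46 ± 1.90 and 2.94 ± 2.30 (SD, n = 4), a difference of -3.52 (SE 2.23, 95% interval -8.23 to 1.19) with an adjusted p of 0.981 by limma (0.133 unadjusted). In limma without a variance trend, Kif16b was the 1 kinesin gene at an unadjusted p under 0.05, at 0.0358, or 0.998 after adjustment. Kif13a, a recycling endosome motor, was at 121 in Day 0 replicate 1 and 15.5 to 17.5 in the other Day 0 libraries, and at 0 to 458 in Recurring libraries. Kif13b ranged from 26.8 to 1528 in Day 0 and from 4.24 to 1251 in Recurring libraries.

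Of the kinesin-4 genes, Kif21a and Kif21b encode motors that restrain microtubule growth in neurons. Kif21a was at 3341, 2153, 3103 and 7907 in Day 0 replicates 1 to 4 and at 5229.8, 3083, 4006 and 3399.8 in Recurring replicates 1 to 4. The Recurring libraries lay within the Day 0 range, and the log2 difference was 0.08 (SE 0.41, 95% interval -0.79 to 0.95). Kif21b was at 2279.6, 2390.0, 3315 and 672 in Day 0 replicates 1 to 4 and at 4170.0, 1494, 1107 and 1138 in Recurring replicates 1 to 4. Its highest library was Recurring and its lowest was Day 0, with a log2 difference of -0.16 (SE 0.59, 95% interval -1.40 to 1.08).

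Kif2a, a kinesin-13 that takes microtubules apart at their ends and limits axon branching, was at 2684, 2163, 1404 and 928 in Day 0 replicates 1 to 4. In Recurring replicates 1 to 4 it was at 1411, 4515, 1333 and 2261. Recurring replicate 2 stood above all other libraries, and the log2 difference was 0.34 (SE 0.53, 95% interval -0.77 to 1.44), or -0.03 without that library. Dimt1, on the opposite strand, shares 19.2% of the exon length of Kif2a in the gene models.

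**Figure D4:**
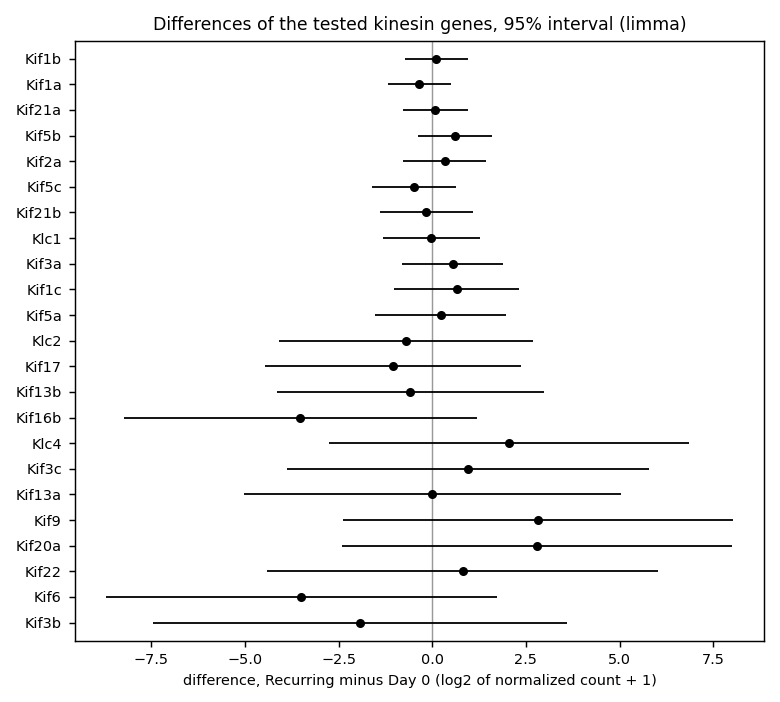
Difference of the log2 means, Recurring minus Day 0, with the 95% interval from limma for the 23 tested kinesin genes, ordered by standard error with the smallest at the top. All intervals include 0; they stay within 1.60 units of 0 for the 8 genes at the top and reach -8.72 and 8.03 among the others.

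Those kinesins of the mitotic spindle that were in the table were low and patchy. Kif20a, a kinesin-6 of cytokinesis, was at 44.6, 16.7, 8.36 and 0 in Day 0 replicates 1 to 4 and at 0, 288, 283 and 218 in Recurring replicates 1 to 4. The other three Recurring libraries lay above all Day 0 libraries, and Recurring replicate 1 shared the lowest value with Day 0 replicate 4. The log2 difference was 2.80 (SE 2.47, 95% interval -2.41 to 8.01), with an adjusted p of 0.981 by limma, and it was 4.81 without Recurring replicate 1 and 1.73 without Day 0 replicate 4. Cdc23 on the opposite strand shares 29.3% of the exon length of Kif20a in the gene models, which leaves its reads uncertain. Markers of dividing cells, 5 of 9 in the table, summed to 0 to 185 in Day 0 and 50.7 to 281 in Recurring libraries. Their sums were close in Recurring replicate 1, at 281 with Kif20a at 0, and in Recurring replicate 2, at 277 with Kif20a at its highest. Top2a, a defining marker, was at 0 in 3 Day 0 and 2 Recurring libraries. Ccnb2 was at 0, 16.7, 0 and 0 in Day 0 replicates 1 to 4 and at 227, 203, 132 and 26.4 in Recurring replicates 1 to 4. Mki67 was at 0, 41.5, 0 and 171 in Day 0 replicates 1 to 4 and at 49.5, 74.3, 4.24 and 0 in Recurring replicates 1 to 4. The part of dividing cells in the mitotic kinesins was not tested.

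Kif22, a chromosome-binding kinesin-10, was at 67.7, 63.8, 0 and 872 in Day 0 replicates 1 to 4 and at 4.95, 25.03, 199 and 1182 in Recurring replicates 1 to 4. A single library held most of the counts in each group, and the log2 difference was 0.81 (SE 2.47), or -1.01 without Day 0 replicate 3. Kif15, a spindle kinesin, and Kif24, a kinesin-13 of the centriole, did not pass the filter. In the 4 Day 0 replicates Kif15 was counted at 0, 3, 167 and 0 reads, and in the 4 Recurring replicates at 0, 1, 37 and 0. For Kif24 the Day 0 replicates gave 0, 11, 40 and 0 reads and the Recurring replicates 480, 0, 2 and 0. Neither gene was confined to 1 group.

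The kinesin-9 genes Kif6 and Kif9, known from motile cilia, stood in opposite directions. Kif6 was at 422, 94.9, 137 and 43.1 in Day 0 replicates 1 to 4 and at 0, 0, 21.2 and 691 in Recurring replicates 1 to 4. Recurring replicate 4 was the highest of all 8 libraries and the other Recurring libraries the lowest, so the mean counts were close, 174 ± 169 and 178 ± 342 (SD, n = 4). The log2 difference was -3.49 (SE 2.47, 95% interval -8.72 to 1.73), with an adjusted p of 0.981 by limma, and it was -5.48 without Recurring replicate 4, with an adjusted p of 0.977 by limma (0.0338 unadjusted). Kif9 was at 0, 11.2, 157 and 0 in Day 0 replicates 1 to 4 and at 21.1, 287, 1.06 and 369 in Recurring replicates 1 to 4, a log2 difference of 2.83 (SE 2.47). That difference was 1.83 without Recurring replicate 4 and 4.35 without Day 0 replicate 3. Of 8 markers of ciliated ependymal and choroid cells 3 were in the table, and their summed level was 11.9 to 545 in Day 0 and 0 to 1.06 in Recurring libraries. It was 545, 80.5, 11.9 and 113 in Day 0 replicates 1 to 4 and 0, 0, 1.06 and 0 in Recurring replicates 1 to 4. Day 0 replicate 1, with the highest sum, also had the highest Day 0 value of Kif6, and Recurring replicate 4, with a sum of 0, had the highest values of Kif6 and Kif9 of all libraries. In Day 0 replicate 1 the sum was mostly Kl, at 495, with Foxj1 at 49.8 and Dnah12 at 0. Foxj1, which directs motile cilia, was highest in Day 0 replicate 4, at 65.1, where Kif6 had its lowest Day 0 value. Foxj1 was at 0 in Day 0 replicate 3 and in all 4 Recurring libraries. The part of these cells in Kif6 and Kif9 was not tested.

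The standard error of a kinesin gene followed its level. This is in part built in, because limma with a variance trend draws each standard error toward the value usual at its level. The 11 genes with the highest level per kb were also the 11 with the smallest standard errors, from 0.40 for Kif1b to 0.83 for Kif5a, and the other 12 ranged from 1.61 for Klc2 to 2.62 for Kif3b. The SDs behind them were 0.89 and 1.62 for Kif5a and 0.32 and 1.86 for Klc2 (Day 0 and Recurring, log2, n = 4). For the 8 most precise, Kif1b, Kif1a, Kif21a, Kif5b, Kif2a, Kif5c, Kif21b and Klc1, the differences lay between -0.49 and 0.61 and the 95% intervals between -1.60 and 1.60. The interval lay within 1 log2 unit of 0, a 2-fold difference either way, for Kif1b and Kif21a, 8.70% of the tested kinesin genes, beside 1.98% of all tested genes. For these 2 that holds only under the model, whose intervals rest in part on the spread usual at their level. Their own SDs were 0.49 and 0.73 for Kif1b and 0.79 and 0.33 for Kif21a (Day 0 and Recurring, log2, n = 4). Intervals from these values alone were not computed, so a difference beyond 2-fold is not excluded. For genes such as Kif3b or Kif6 a difference of many fold was not detectable with this spread.

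**Figure D5:**
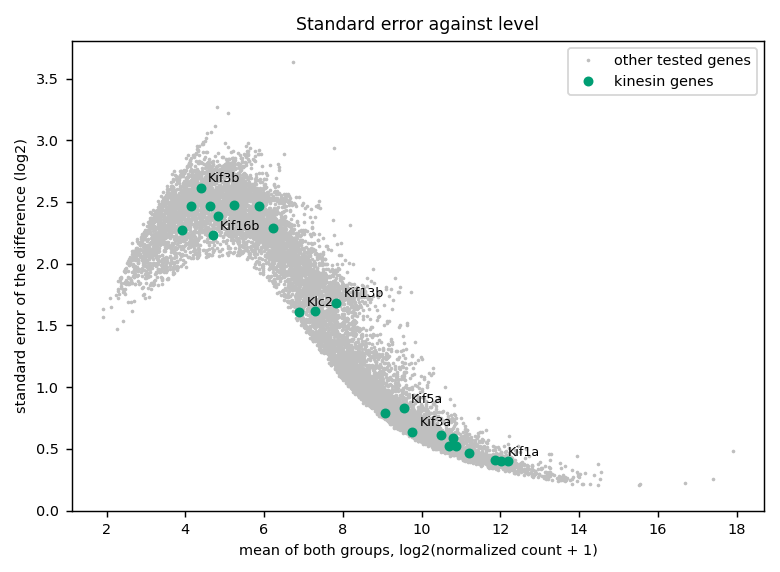
Standard error of the difference (log2) against the mean log2 level of both groups for the tested kinesin genes (green) and all other tested genes (grey). The green points follow the grey cloud, from 0.40 at the right to 2.62 at the upper left. Part of this course is built in by the variance trend of limma.

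The genes that work with kinesins were described in 5 lists, of which 95 of 98 genes were in the table and 86 were tested. Limma called 0 of the 86 in either direction. At an unadjusted p under 0.05 by limma there were 1 higher and 0 lower, where 1.88% and 1.74% of all tested genes stood. The groups did not overlap in 0 of the 86, beside 2.41% of all tested genes. Means were higher for 43 and lower for 43, with a median difference of -0.01. The most precise and the lowest-p gene of each list are named here.

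Of the other kinesin family and binding genes 1 was higher and 2 were lower of 3 tested. Kifap3, the adaptor of the Kif3 motors, had a log2 difference of -0.54 (SE 0.52), or -0.27 without Day 0 replicate 1. Kifc2, a minus-end-directed kinesin of neurons, had one of -0.40 (SE 0.50), which ran from -0.77 without Day 0 replicate 1 to -0.11 without Recurring replicate 4. Cargo adaptors numbered 8 higher and 15 lower of 23, with a median of -0.19. Ppfia2, a liprin that binds Kif1a, differed by -0.21 (SE 0.40). Grip1, which links Kif5 to AMPA receptors, was at 566, 402, 1.19 and 163 in Day 0 replicates 1 to 4 and at 438, 1326, 693 and 622 in Recurring replicates 1 to 4. Its difference of 2.89 (SE 1.52) became 1.08 without Day 0 replicate 3, the library nearly empty of it.

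Dynein and dynactin, the motor complex that moves the opposite way, numbered 10 higher and 15 lower of 25, with a median of -0.26. Hook3, an adaptor that activates dynein, was the 1 gene of all lists at an unadjusted p under 0.05. It was at 1141, 996, 323 and 2149 in Day 0 replicates 1 to 4 and at 3735, 1582, 2281 and 2581 in Recurring replicates 1 to 4. Day 0 replicate 4 lay above the lowest Recurring library, so the groups overlapped. The log2 difference was 1.36 (SE 0.59, 95% interval 0.12 to 2.61), with an adjusted p of 0.981 by limma (0.0331 unadjusted). It was 0.85 without Day 0 replicate 3, the lowest library. Its relative Hook1 differed by 0.16 (SE 0.37).

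Tubulins, the subunits of the tracks, numbered 7 higher and 4 lower of 11, with a median of 0.05. Tubb2a differed by 0.10 (SE 0.46), and Tuba4a by 2.14 (SE 1.76), or -0.16 without Day 0 replicate 4, where it was at 0. Microtubule-associated proteins numbered 17 higher and 7 lower of 24, with a median of 0.22, and 12 were higher without Day 0 replicate 4. Map1b, which stabilises microtubules in axons, was the most precise gene of the lists, at 13.47 ± 0.27 and 13.50 ± 0.27 (log2, SD, n = 4), a difference of 0.03 (SE 0.25). Clasp2, which binds growing microtubule ends, differed by 0.94 (SE 0.51) with an adjusted p of 0.981 by limma, and by 0.56 without Recurring replicate 1, its highest library.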

How the data were processed

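Per the labels' protocols, the SMART-Seq mRNA LP kit was used on RNA of isolated nuclei, and the submitters' processing notes name STAR, HTSeq and GRCm39 without versions. The authors deposited a scaled, linear signal. How they were scaled is not given in the sources used here. A constant for each gene (median 1.11) was computed as a TMM factor across genes instead of across libraries, with the gene Ptdss1 as reference. Division by these constants returned whole reads (tolerance 0.1 read) for 95910 of 95910 values above 0, where 19.7% of the deposited values were whole as they stand. One constant per gene leaves library depth uncorrected. The step was tested on simulated data, made by scaling the recovered reads with the same kind of constants, and recovered 100% of genes. That run cannot show whether the deposited values were scaled in this way.

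Size factors were medians of ratios (0.837 to 1.61), and reads over size factor are called normalized counts. Log2 of the normalized count plus 1 was compared by limma 3.58.1 (R 4.3.3; trended prior variance) for genes at 10 or more in at least 4 libraries. P-values were adjusted by Benjamini-Hochberg over all 11078, with a threshold of 0.05. They measure only the spread between these libraries, which may be technical. On data simulated with the spread of these libraries, limma called 0 of 40 genes changed 2-fold and 11 of 40 changed 16-fold.

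The members, lists and tests were chosen with earlier results of these data known. Differences are given for the 8 tested members with the smallest standard error, the 3 higher and 3 lower with the smallest p, and classes of 1 or 2 tested members. In each list the genes with the smallest p and smallest standard error are named. Other members are given by level; library values of Kif3a, Kif17 and Kif22 were added after they were seen. Replicates were numbered in accession order. Alternatives were another pseudocount, no filter, other scalings, no variance trend, voom and leaving out each library.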

Additional observations from a re-analysis of the deposited data

Results flagged for a closer look

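In 50 groups of 4 libraries, 25 genes in each of 2 classes, 4 had a library far from the rest on the log2 scale. For normal values chance gives about 1 in 20. That rate need not hold for groups with libraries at 0, among them the flagged groups of Kif15 and Kif20a. Day 0 replicate 1 stood high for Kif13a, with a gap of 0.943 of the group's range. Day 0 replicate 4 stood low for Kif17, with a gap of 0.885 of the range. Recurring replicate 1 stood low for Kif20a, with a gap of 0.951 of the range. Recurring replicate 3 stood high for Kif15, with a gap of 0.840 of the range.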

How the results depend on the processing

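Over 14 alternatives limma called 0 kinesin genes, and 0 of the 322 differences recomputed for the 23 named genes were called. Direction was kept in 298 and changed in 24, of which 22 came from leaving out a library. For all genes together the number called was 0, except 2 without a variance trend, and that setting also put 1 kinesin gene at an unadjusted p under 0.05. Leaving out a library gave 0 to 1 such genes, the 1 being Kif6 without Recurring replicate 4. The number of kinesin genes with higher means ran from 10 without Recurring replicate 1 to 15 without Recurring replicate 3, and their median difference from -0.17 to 0.36. For the other kinesin family genes the count of higher genes became 2 without a filter, where all 7 in the table were tested instead of 3. For tubulins the count of higher genes became 4 under voom. Leaving out a library, it ran from 0 to 1 for the other kinesin family genes, 6 to 11 for cargo adaptors, 12 to 16 for microtubule-associated proteins, 5 to 13 for dynein and dynactin and 3 to 8 for tubulins. Klc1 differed by 0.0782 with the deposited values as they stand and by 0.0069 under voom. Leaving out a library, differences ran from -0.13 to 0.47 for Kif1b, -0.17 to 0.45 for Kif21a, -0.65 to 0.12 for Kif21b, -1.01 to 2.24 for Kif22, -0.0338 to 0.57 for Kif2a and -0.53 to 0.24 for Klc1. They kept their direction for Kif1a (-0.60 to -0.06), Kif5b (0.24 to 0.88), Kif5c (-0.84 to -0.26), Kif6 (-5.48 to -2.34), Kif9 (1.83 to 4.35), Kif16b (-4.44 to -2.83) and Kif20a (1.73 to 4.81). They ran from -0.073 to 0.47 for Hook1, -0.11 to 0.16 for Map1b, -0.40 to 0.12 for Ppfia2, -0.16 to 3.23 for Tuba4a and -0.0532 to 0.21 for Tubb2a. The cause of these shifts was not tested. The median of all tested genes moved to -0.15 without Day 0 replicate 4 and to 0.15 without Recurring replicate 1. An edgeR fit was planned and not run, because the deposited columns are scaled values; voom was run on the recovered reads. No paired analysis was run, because each library is titled with its own mouse number and no mouse is in both groups.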
